A study of Rattus norvegicus with 44 samples.

Results

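Collagen chain genes encode the polypeptides that fold as trimers into collagen molecules. They were taken here as the probe sets whose single gene symbol reads Col, a number, the letter a and a number, with the brightest probe set (by mean level over 38 arrays) used for each gene. This gave 27 probe sets for 25 genes, out of 14324 genes that have a probe set with 1 symbol, and Col6a4 alone had more than 1 probe set. Another 19 of the 44 collagen chain genes in the RefSeq table of the rat assembly GRCr8 had no such probe set and were not analysed here. The 25 genes comprised 10 of 11 fibril-forming chains, 3 of 6 basement membrane chains of type IV, 5 of 10 fibril-associated (FACIT) chains, 1 of 6 type VI chains, 2 of 3 short-chain network chains, 3 of 4 transmembrane chains, 1 of 3 other chains and 0 of 2 multiplexin chains.

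RNA came from whole ovaries of 4-day-old female Sprague-Dawley rats, an age at which nearly all follicles are primordial, kept in organ culture for 48 h and hybridized to Affymetrix Rat Gene 1.0 ST arrays. In the main set, 14 samples were left untreated, and 3 samples each received 50 ng/ml of PDGFab (the heterodimer of the PDGF A and B chains), KITLG, FGF2, FGF7, BMP4, AMH, LIF or GDNF. A separate set, hybridized and preprocessed apart, held 3 samples with 50 ng/ml CTGF and 3 untreated controls of their own. Each sample pooled 2 or 3 ovaries of 1 culture well from different pups of a litter. All values are the deposited log2 levels, in which a difference of 1 is a doubling. Each culture day held controls and some of the growth factors, and which control shared a day with which treated sample is not given in the sources used here. In a whole ovary, fewer cells of a type and less RNA per cell cannot be told apart.

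Collagens are the main structural proteins of the extracellular matrix. Fibril-forming chains build the fibers of the ovarian stroma, network chains of type IV make the basement membrane that surrounds each follicle, and FACIT chains decorate the fibril surface. Because a molecule is a trimer, chains such as Col1a1 and Col1a2 are needed together, and the newly made chains are hydroxylated, folded, trimmed and cross-linked by a dedicated set of enzymes before they bind receptors on neighbouring cells.

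The promoters of 3 genes are shown because these genes recur in the results, the paired type IV chains in the covariation and the type I chain Col1a2 with the growth factors. No relation between these sequences and the values was tested. Each is the 250 bases before the RefSeq start in GRCr8, written 5′ to 3′ on the strand of its gene, for Col4a3 chr9:91323740-91323989 on the plus strand, for Col4a4 chr9:91323578-91323827 on the minus strand and for Col1a2 chr4:33518307-33518556 on the plus strand. Capitals mark, in Col4a3 and Col4a4, the 88 bases that both windows hold, read from opposite strands. In Col1a2 they mark the matches to CCAAT (here as its complement, 221 bases before the RefSeq start) and TATAAA (170 bases before the RefSeq start). Whether the RefSeq starts are the sites where transcription begins was not tested.
Col4a3: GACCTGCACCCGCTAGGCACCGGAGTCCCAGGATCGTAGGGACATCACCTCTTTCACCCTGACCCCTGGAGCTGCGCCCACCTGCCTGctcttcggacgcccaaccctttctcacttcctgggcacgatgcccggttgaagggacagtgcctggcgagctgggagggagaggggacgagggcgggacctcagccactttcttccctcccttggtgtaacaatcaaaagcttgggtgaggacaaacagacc
Col4a4: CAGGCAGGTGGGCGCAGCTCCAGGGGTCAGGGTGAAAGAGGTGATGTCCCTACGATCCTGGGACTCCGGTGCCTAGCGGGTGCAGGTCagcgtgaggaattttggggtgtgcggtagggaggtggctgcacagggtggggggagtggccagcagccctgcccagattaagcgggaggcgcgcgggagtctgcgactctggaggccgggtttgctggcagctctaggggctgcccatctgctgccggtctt
Col1a2: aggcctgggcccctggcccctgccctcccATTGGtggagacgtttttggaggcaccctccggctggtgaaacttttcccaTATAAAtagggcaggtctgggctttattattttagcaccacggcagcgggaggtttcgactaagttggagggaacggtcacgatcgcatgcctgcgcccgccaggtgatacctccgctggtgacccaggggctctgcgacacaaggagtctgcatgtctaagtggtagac
Among 33469 promoter windows of this length, searched on both strands, 34% held CCAAT, 12.9% TATAAA and 30.5% GGGCGG. Of the 20 collagen chain genes with an entry, 7 held CCAAT, 4 TATAAA and 11 GGGCGG. Col4a3 held 1 match to GGGCGG and neither of the other motifs, and Col4a4 held none of the 3.

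In the 14 untreated cultures, 13 of the 25 collagen genes lay above 5.98, the median level of all probe sets, and 12 lay at or below it. Probes differ in brightness, so this says which signals were bright and does not order the genes by RNA amount. The bright 13 were the type I, III and V chains of stromal fibrils except Col5a3, together with Col11a1, Col27a1, Col4a1, Col4a3, Col4a4, Col12a1, Col14a1 and Col16a1. The dim 12 included Col2a1, Col9a1, Col9a2, Col10a1 and Col11a2, which are known as cartilage chains, and the transmembrane chains Col13a1, Col17a1 and Col23a1.

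The spread between untreated cultures differed among the chains. Col11a1, a minor fibril chain that the study lists among its most connected genes, had the widest spread, from 6.77 over a median of 8.02 to 8.90 (SD 0.59, n = 14), a 4.40-fold range. That SD was higher than the SD of 98.0% of all probe sets. Next came 3 basement membrane chains. Col4a4 ran from 6.20 over 6.62 to 7.79 (SD 0.38, n = 14), Col4a3 from 6.08 over 6.41 to 7.32 (SD 0.35, n = 14), and Col4a1 from 7.72 over 8.43 to 8.76 (SD 0.30, n = 14). The Col4a4 value rested on control 1, without which the SD was 0.19. Col8a1, a short-chain network gene of vessels and corneal membrane, ran from 4.37 over 4.57 to 5.39 (SD 0.27, n = 14), and its highest value came from control 12 (SD 0.16 with controls 12, 13 and 14 left out). The smallest SDs belonged to dim genes, namely Col9a1 with 0.11, Col13a1 and Col2a1 with 0.12, and Col7a1 and Col9a2 with 0.13. The median SD was 0.17 over the 25 genes and 0.20 over all probe sets, and 10 of the 13 bright collagen genes exceeded the latter.

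Single cultures stood out across many chains at once. Control 1 was the highest of the 14 for 9 genes, 8 of them bright, among them Col1a1, Col1a2, Col3a1, Col5a1, Col5a2, Col12a1 and Col16a1. Control 12 was the highest for 7 genes. The share of all probe sets that were highest in either culture was not computed. Over all probe sets, the root mean square deviation from the control mean was 0.33 for control 1 and 0.36 for control 12. It was 0.38 for control 2, 0.30 for control 9 and from 0.17 to 0.25 for the others. Controls 12, 13 and 14 resembled each other over all probe sets (r from 0.21 to 0.37 between deviations from the control mean), whereas 27 of their 33 correlations with controls 1 to 11 were negative.

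Whether chains of 1 molecule vary together was asked over the 14 controls. Of 17 listed partner pairs, 7 had both chains measured. Their median r was 0.36, against 0.17 over all pairs of collagen genes and 0.33 over pairs of bright collagen genes. Col1a1 and Col1a2, the chains of type I collagen, had r = 0.76 and rho = 0.77 (permutation p = 0.00145 for r and 0.00214 for rho, adjusted over the 7 pairs 0.0101 and 0.0150). Without controls 1 and 3, the cultures farthest from the Col1a1 median, r was 0.57 and no longer passed (adjusted permutation p = 0.367). It was 0.70 without control 1 and 0.85 over controls 1 to 11. Around their own group means, the 24 treated arrays of the main set gave r = 0.98 for the same pair, a value given as a description because 3 arrays share each mean. In the scatter both type I chains rise together, but untreated and treated cultures do not all share 1 line. With GDNF the mean was 11.49 for Col1a1, under the control mean of 11.70, and 11.16 for Col1a2, against 11.14.

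The other 6 partner pairs did not pass. Col2a1 and Col11a2 came closest with r = 0.59 (rho = 0.28, adjusted permutation p = 0.108 for r), which was 0.37 without controls 12 and 2 and 0.17 over controls 1 to 11. Col5a1 and Col5a2, the chains of type V collagen that nucleate type I fibrils, had r = 0.36, which was 0.05 without control 1, while the treated arrays gave 0.88. Col9a1 and Col9a2 had r = 0.41, and Col2a1 and Col11a1 had r = -0.03. Col11a1 and Col11a2, chains of type XI collagen, had r = -0.44, which was -0.09 without controls 9 and 1, the farthest from the Col11a1 median, and -0.80 over controls 1 to 11 (adjusted permutation p = 0.00458).

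Col4a3 and Col4a4 are the head-to-head neighbours whose windows are printed above. Their starts are 412 bases apart on chromosome 9. Over the 14 controls they had r = 0.29 and rho = 0.28 (adjusted permutation p = 0.328 for r), 0.34 without control 1 and 0.12 around the group means of the treated arrays. Their highest controls differed, control 14 for Col4a3 at 7.32 and control 1 for Col4a4 at 7.79. Col3a1 and Col5a2, which lie 38189 bases apart on the same chromosome, had r = 0.54 (rho = 0.49, permutation p for r adjusted over 300 pairs 0.321), and 0.34 without control 1, the highest for both genes.

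**Figure D1:**
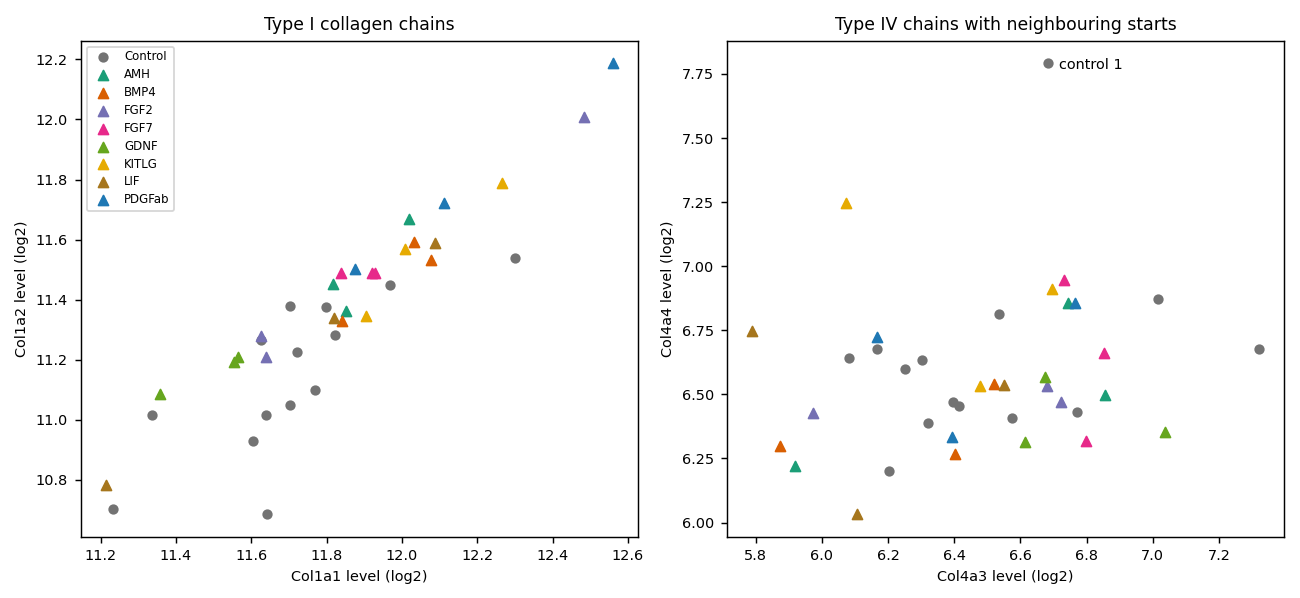
Levels (log2) of Col1a2 against Col1a1 on the left and of Col4a4 against Col4a3 on the right, with 14 controls as grey circles and the 24 treated cultures of the main set as triangles coloured by growth factor. The type I chains rise together (r = 0.76 over the controls), the type IV neighbours less so (r = 0.29), and control 1 lies apart at a Col4a4 level of 7.79.

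Over all 300 pairs of collagen genes, 43 had a permutation p under 0.05 and 0 passed after adjustment over the 300. The share of all probe-set pairs under that p was not computed. An r of at least 0.6 was reached by 9.33% of the collagen pairs and 6.72% of all probe-set pairs. Among bright pairs it was 21.8% of the collagen pairs against 8.75%, and among dim pairs 13.6% against 13.3%. The highest values were 0.84 for Col2a1 and Col7a1, 0.80 for Col9a2 and Col11a2, 0.80 for Col7a1 and Col8a1, and 0.79 for Col4a1 and Col16a1. In the last pair, the basement membrane chain and the FACIT chain had r = 0.73 without the 2 farthest cultures, and Col9a2 and Col11a2 had 0.72. Without control 12 and 1 further culture each, r was 0.33 for Col7a1 and Col8a1 and 0.51 for Col2a1 and Col7a1. The 78 pairs of bright genes had a median r of 0.33 against 0.09 for pairs of all bright probe sets, and the 66 pairs of dim genes had 0.23 against 0.19. Pairs of 1 bright and 1 dim gene had a median of -0.01, and the median over all such probe-set pairs was not computed. These correlations share arrays and preprocessing, and dim probe sets share background.

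**Figure D2:**
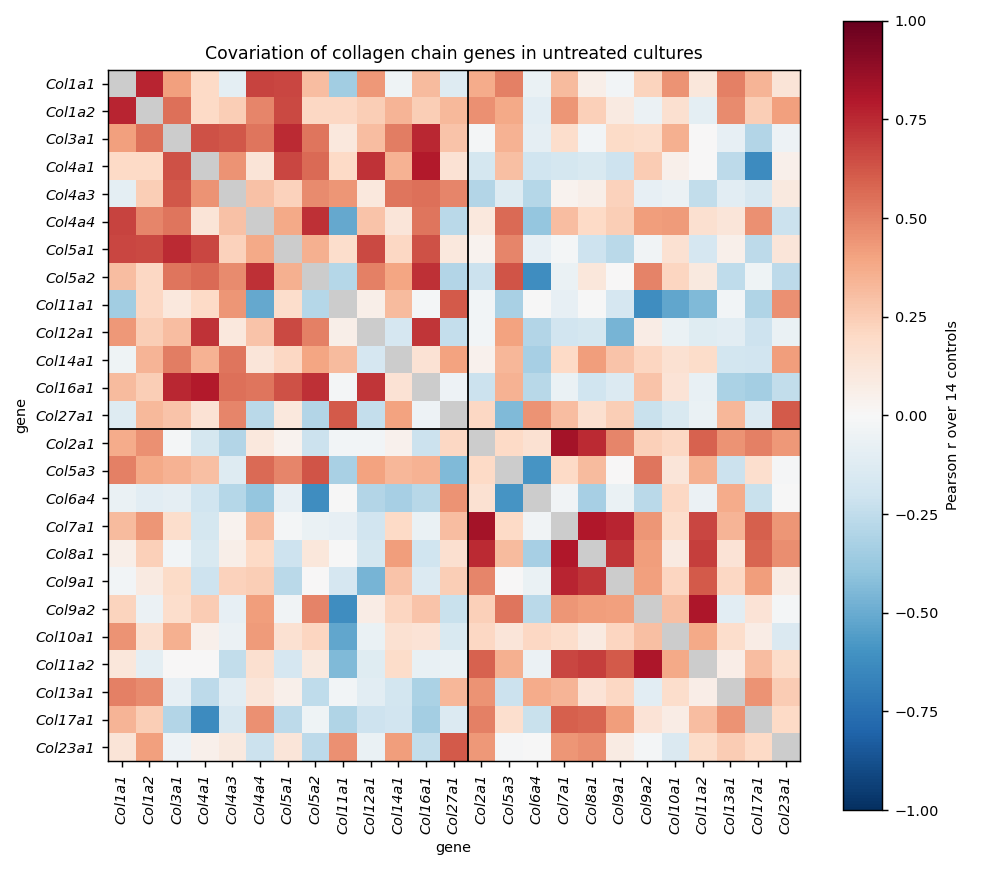
Pearson r over the 14 controls for all pairs of the 25 collagen genes, with the 13 genes above the median level of all probe sets first and black lines dividing them from the 12 others. Most of the red squares lie within the bright block (median r = 0.33) and the dim block (0.23), while the mixed blocks have a median of -0.01. Over all probe sets the median was 0.09 for bright and 0.19 for dim pairs, and that for mixed pairs was not computed.

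Each growth factor was set against the untreated cultures of its set. No collagen gene passed an adjusted p of 0.05 in any comparison, which is 0 of 225 tests by limma, and the methods' t-test on log2 or on linear values also called 0. Over all 27342 probe sets, the share called by limma was 0% with AMH, 0.274% with BMP4, 0.94% with FGF2, 0.0805% with FGF7, 1.89% with GDNF, 0.0439% with KITLG, 0.267% with LIF, 0.234% with PDGFab and 0% with CTGF. With weights for array quality, limma called 1 collagen gene with PDGFab, 1 with LIF and 4 with GDNF, against 4.13%, 0.878% and 20.6% of all probe sets called with the same weights. At an unadjusted limma p under 0.05 there were 26 collagen tests, which came to 2 of 25 genes with AMH (5.08% of all probe sets), 2 with BMP4 (8.97%), 1 with FGF2 (12.2%), 3 with FGF7 (7.57%), 4 with GDNF (17.1%), 5 with KITLG (8.66%), 2 with LIF (7.25%), 7 with PDGFab (9.79%) and 0 with CTGF (3.12%). The study's own, looser criteria, applied here with the unadjusted limma p in place of its t-test, ask for a p no higher than 0.05, a linear fold of 1.2 upward or 0.83 downward, and group means that lie 10 or more apart on the linear scale. They were met 11 times, by Col1a1, Col1a2, Col12a1 and Col14a1. In the lower direction 0 of 25 genes met them with AMH, FGF2, FGF7, KITLG and PDGFab, against 0.731%, 2.36%, 2.12%, 2.28% and 1.69% of all probe sets, and in the higher direction 0 met them with LIF, against 2.85%. The 8 comparisons of the main set share the 14 controls, so a gene that meets the criteria in several of them does not give separate observations.

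**Figure D3:**
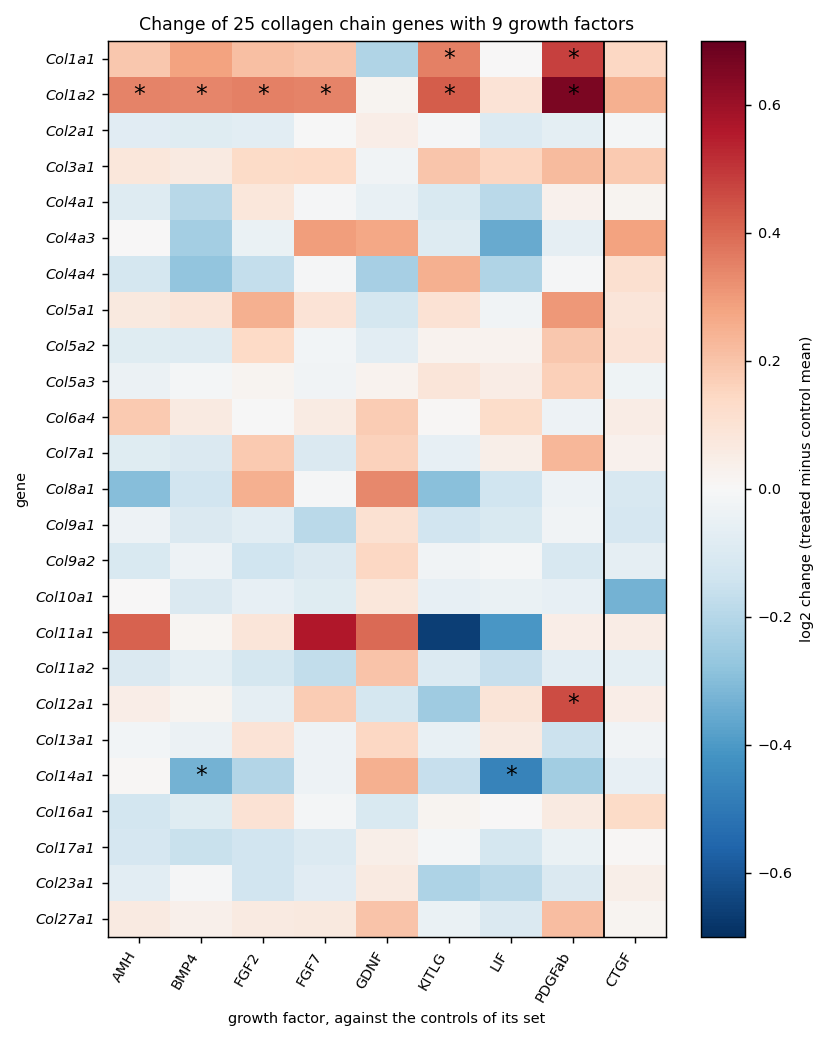
Log2 change (treated mean minus control mean) of the 25 collagen genes with the 8 growth factors of the main set and, right of the black line, with CTGF against its own controls. Stars mark the 11 gene and growth factor pairs that met the study's criteria, 6 of them in the row of Col1a2.

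PDGFab had the most collagen genes at these criteria, 3 of 25 and all higher (12%, against 3.64% of all probe sets), a count that was 1 without PDGFab culture 1, 6 without culture 2 and 7 without culture 3. With the replicate number as a block it was 1, as with BMP4, FGF7, GDNF and LIF, so PDGFab then no longer had the most. In the controls Col1a2 had a lowest, median and highest level of 10.69, 11.16 and 11.54, and with PDGFab 12.19, 11.72 and 11.50. Of the PDGFab cultures, 2 lay above every control and the third lay just under the highest. The difference was 0.66 ± 0.16 (SE), or 1.58-fold (limma adjusted p = 0.0677, exact permutation p = 0.00294, two-sided, where 0.00147 is the smallest possible). Without PDGFab culture 1 the difference was 0.47, and with array weights it was 0.58 and passed (limma adjusted p = 0.0073).

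Col1a1 ran in the controls from 11.23 over a median of 11.70 to 12.30 and was at 12.56, 12.11 and 11.87 with PDGFab. The first PDGFab culture lay above every control and the others lay inside the control range. The difference was 0.48 ± 0.17 (SE, limma adjusted p = 0.248, exact permutation p = 0.0176), and 0.29 without PDGFab culture 1. Col12a1, a FACIT chain that binds type I fibrils, ran in the controls from 7.62 over 7.91 to 8.44 and was at 8.88, 8.05 and 8.22 with PDGFab. Again only the first culture lay above the controls, and the difference of 0.46 ± 0.16 (SE, limma adjusted p = 0.261, exact permutation p = 0.0265) was 0.21 without it. Further collagen genes with an unadjusted limma p under 0.05 were Col7a1 (0.23), Col14a1 (-0.24) and, named after their values were seen, Col3a1 (0.22) and Col27a1 (0.22), in all 7 of 25 (28%, against 9.79% of all probe sets). Among the 10 fibril-forming chains 8 had a positive difference with a median of 0.20, whereas the median over all 25 genes was -0.01 and that over all probe sets -0.01. The 13 bright collagen genes, which include type IV and FACIT chains, had a median of 0.19, against 0.02 over all bright probe sets. Class and brightness were not separated here.

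With KITLG, 2 of 25 genes met the criteria, both higher (8%, against 2.17% of all probe sets), and they were again the type I chains. Col1a2 was at 11.79, 11.35 and 11.57 with KITLG, of which 2 cultures lay above the highest control. The difference was 0.42 ± 0.16 (SE, limma adjusted p = 0.420, exact permutation p = 0.0176). Col1a1 was at 12.27, 11.90 and 12.01, all inside the control range, with a difference of 0.35 ± 0.17 (SE, limma adjusted p = 0.544, exact permutation p = 0.0382). Without KITLG culture 1 neither gene met the criteria.

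Col1a2 alone met the criteria in the higher direction with AMH, BMP4, FGF2 and FGF7, which is 4% of the 25 genes in each, against 1.42%, 2.11%, 4.43% and 2.04% of all probe sets. With AMH it was at 11.45, 11.67 and 11.36, with BMP4 at 11.53, 11.59 and 11.33, with FGF2 at 12.01, 11.28 and 11.21, and with FGF7 at 11.49, 11.49 and 11.49. The 3 FGF7 cultures were nearly equal and lay within the upper control range, while 1 culture each of AMH, BMP4 and FGF2 lay above the controls. The other FGF2 cultures lay near the control median. The differences were 0.35 with AMH, 0.34 with BMP4, 0.36 with FGF2 and 0.34 with FGF7 (SE 0.16 in each), at limma adjusted p values of 0.982, 0.539, 0.367 and 0.640 and exact permutation p values of 0.0471, 0.0515, 0.0868 and 0.0397. Without FGF2 culture 1 the FGF2 difference was 0.10. The remaining pair gave 11.59, 11.34 and 10.78 with LIF and 11.21, 11.19 and 11.09 with GDNF, differences of 0.09 and 0.02. Set against PDGFab directly, Col1a2 differed by -0.24 (KITLG) to -0.64 (GDNF), and none of the 7 contrasts passed (limma adjusted p = 0.0860 for GDNF and 1.00 for the others).

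Further genes with an unadjusted limma p under 0.05 with AMH, FGF7, KITLG or LIF were mostly dim, and none passed after adjustment. Col9a1, a cartilage FACIT chain, was at 4.74, 4.68 and 4.72 with FGF7, with all 3 cultures below the lowest control of 4.80 (difference -0.19, exact permutation p = 0.00882, limma adjusted p = 0.388). Col8a1 differed by -0.30 with AMH and -0.29 with KITLG, each with 2 cultures below every control, and Col11a2 by -0.17 with FGF7 and -0.16 with LIF. Named after their values were seen, Col3a1 (0.19) and Col23a1 (-0.21) with KITLG complete them.

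**Figure D4:**
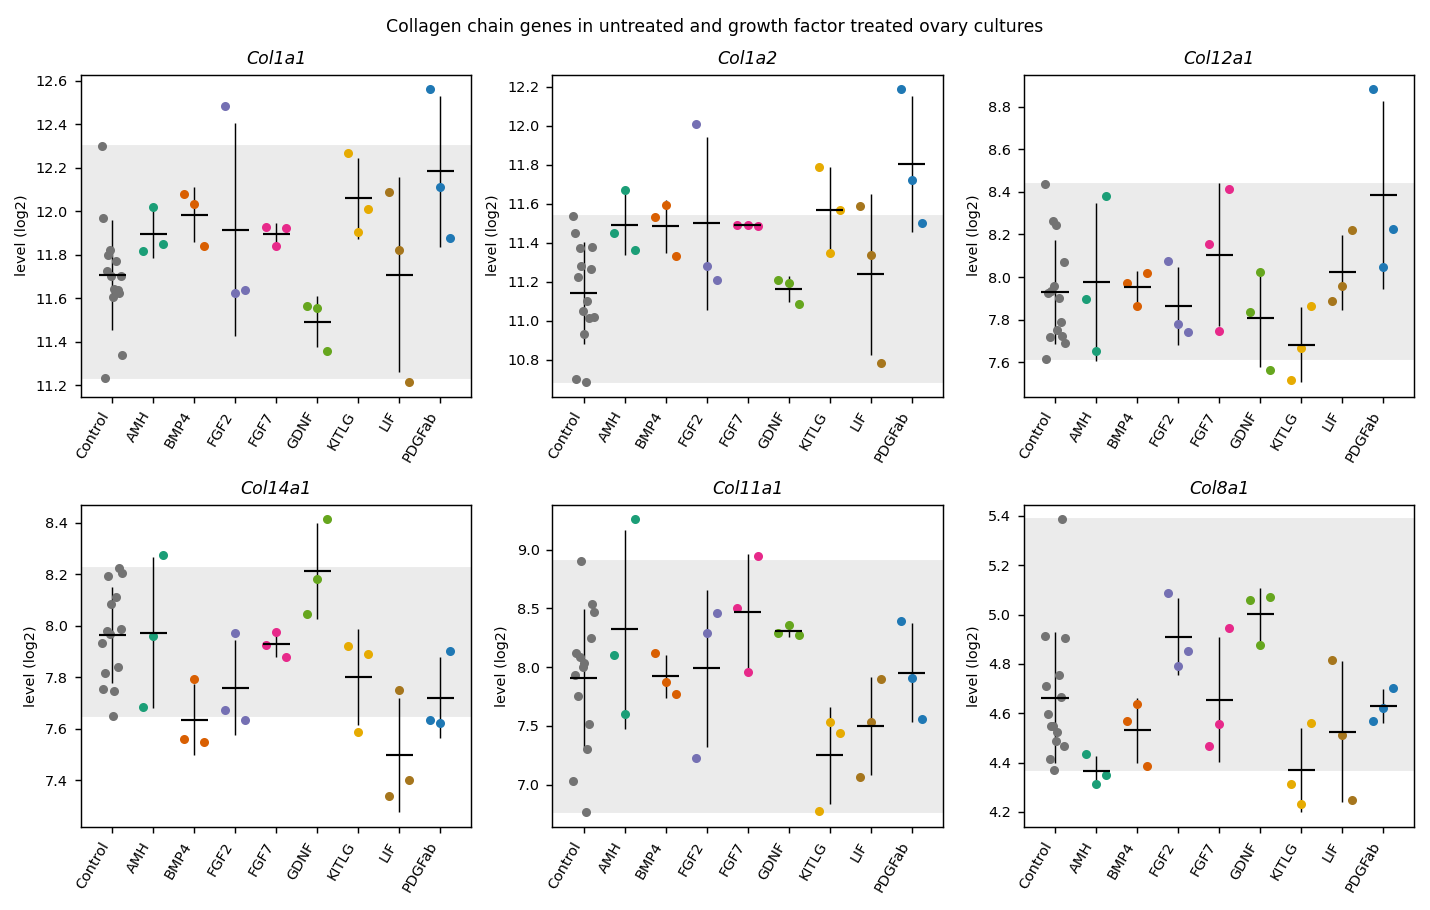
Levels (log2) of 6 collagen genes in each culture of the main set, with black bars for group means, vertical lines for 1 SD, and a grey band from the lowest to the highest of the 14 controls (3 cultures in every other group). PDGFab holds the highest Col1a2 value (12.19), LIF the lowest Col14a1 values (7.34 and 7.40), and the Col11a1 band is wide (6.77 to 8.90).

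Col14a1, a FACIT chain of dense connective tissue, was the gene that met the criteria in the lower direction. It ran in the controls from 7.65 over a median of 7.97 to 8.22, and was at 7.34, 7.75 and 7.40 with LIF and at 7.56, 7.79 and 7.55 with BMP4. With either factor 2 cultures lay below every control. The LIF difference was -0.47 ± 0.12 (SE, 0.724-fold, limma adjusted p = 0.0870, exact permutation p = 0.00441), past the threshold with array weights (0.0448) or quantile normalization (0.0369), and it made 1 of 25 genes in the lower direction (4%, against 0.969% of all probe sets). With BMP4 it was -0.33 ± 0.12 (SE, limma adjusted p = 0.307, exact permutation p = 0.00882), also 1 of 25 (4%, against 2.37%). It was -0.24 with PDGFab and 0.25 with GDNF, where the cultures were at 8.04, 8.18 and 8.41.

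GDNF had 0 genes at the criteria (against 1.96% of all probe sets higher and 4.03% lower) and 4 of 25 with an unadjusted limma p under 0.05, all of them higher (16%, against 17.1% of all probe sets). These were Col8a1 (0.34), Col11a2 (0.20), Col14a1 (0.25) and Col27a1 (0.20). Col27a1 was named after its values were seen, and Col8a1 and Col11a2 are dim. The median difference with GDNF was 0.04 over all probe sets but -0.04 over the bright ones. For the collagen genes it was 0.06 over all 25 and -0.05 over the 13 bright. The part of this split by brightness in the differences was not tested. Across all probe sets (a description, since they share arrays) the mean deviation of the GDNF cultures from the control mean had r = 0.68, 0.46 and 0.54 with the deviations of controls 12, 13 and 14, and r from -0.39 to 0.15 with those of the others. Against controls 1 to 11 the 4 differences were 0.41, 0.21, 0.30 and 0.23, and against controls 12 to 14 they were 0.08, 0.15, 0.07 and 0.10. With controls 12 to 14 left out, Col8a1 and Col11a2 passed the adjusted threshold. The part of these 3 controls in the GDNF values was not tested.

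The growth factors were also set against each other in 28 direct contrasts, a step added after the values were seen. Of 700 collagen tests 5 passed, all with GDNF on 1 side, and 70 had an unadjusted limma p under 0.05, against 7.08% of the tests over all probe sets. The 5 calls became 0 by the methods' t-test, 17 with the replicate block, 31 with array weights and 16 with controls 12 to 14 left out. Col14a1 was higher with GDNF than with LIF by 0.72 ± 0.15 (SE, limma adjusted p = 0.0105, 3.79% of all probe sets called) and than with BMP4 by 0.58 (limma adjusted p = 0.0363, 2.4% called). Every GDNF culture lay above every culture of LIF and BMP4. Col11a2 was at 5.99, 6.07 and 6.0 with GDNF, at 5.59, 5.69 and 5.71 with LIF and at 5.59, 5.81 and 5.55 with FGF7, and was higher with GDNF by 0.36 and 0.37 (limma adjusted p = 0.0293 and 0.0380, with 3.79% and 1.55% called). Col8a1 was at 5.06, 4.88 and 5.07 with GDNF and at 4.31, 4.23 and 4.56 with KITLG, a difference of 0.63 ± 0.17 (SE, limma adjusted p = 0.0452, 2.5% called). Col11a2 and Col8a1 are dim genes. The KITLG mean of Col8a1, 4.37, lay under 4.52, the lower quartile of mean levels over all probe sets. Leaving out each of the 6 cultures in turn, the Col14a1 contrast of GDNF and LIF lost its call without LIF culture 1 alone (0.64, limma adjusted p = 0.0794). The Col11a2 contrast with FGF7 kept its call without FGF7 culture 2 and lost it otherwise, and the other 3 lost theirs whichever culture was left out.

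Col11a1 did not pass in any comparison, although its difference with KITLG was the lowest of all 225. It was at 6.77, 7.54 and 7.44 with KITLG, at 7.07, 7.53 and 7.90 with LIF, at 8.51, 7.96 and 8.95 with FGF7, at 8.10, 7.6 and 9.26 with AMH, and at 8.29, 8.36 and 8.27 with GDNF. Every KITLG and LIF culture lay below the control mean of 7.91 and every FGF7 and GDNF culture above it, and all of the cultures named lay inside the control range except 1 of FGF7 and 1 of AMH. The differences were -0.66 ± 0.33 (SE) with KITLG, -0.41 with LIF, 0.56 with FGF7, 0.41 with AMH and 0.40 with GDNF, at limma adjusted p values of 0.583, 0.861, 0.740, 1.00 and 0.566. Without AMH culture 3 the AMH difference was -0.06. The 95% interval with KITLG ran from -1.32 to 0.01 (unadjusted limma p = 0.0520, just outside the study's criteria). FGF7 exceeded KITLG by 1.22 ± 0.42 (SE), which did not pass either (limma adjusted p = 1.00).

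Cultures that carry the same number in different treatment groups were alike in several chains. Col1a1, Col5a2 and Col5a3 were highest in culture 1 in 7 of the 8 growth factor groups, and Col1a2 and Col5a1 in 6 of 8. Col4a3, a basement membrane chain, was lowest in culture 1 in 7 of 8 groups, with its lowest values of 5.92 with AMH, 5.87 with BMP4 and 5.79 with LIF, below the lowest control of 6.08. Col1a2 was lowest in culture 3 in 7 of 8. Over all probe sets, 54 of 84 pairs of same-numbered treated cultures had r over 0.1 (median 0.13), against 31 of 168 pairs with different numbers (median -0.08). What the numbers share is not given in the sources used here, and with the number as a block, where only controls 1 to 3 share numbers with treated cultures, the genes at the criteria were 0 with FGF2, 0 with KITLG and 1 with PDGFab.

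CTGF was set against its own 3 controls. No collagen gene passed, with 0 at an unadjusted limma p under 0.05 (3.12% of all probe sets) and 0 at the study's criteria (0.318% higher and 0.443% lower). Cultures of the same number resembled each other here (r from 0.62 to 0.84 between treated and control deviations), and with the number as a block 3 of 25 genes had an unadjusted limma p under 0.05 (10.2% of all probe sets), while 0 passed after adjustment, as for all probe sets. Col1a2 was at 11, 12.08 and 11.82 with CTGF and at 10.70, 11.72 and 11.74 in the controls of the same number, higher by 0.30, 0.36 and 0.08 (blocked limma p = 0.0141, adjusted p = 0.412). Without control 1 of the set and without the block, the Col1a2 difference was -0.10. Col3a1, the chain of type III collagen and chosen after its values were seen, was at 11.20, 11.66 and 11.54 against 10.95, 11.46 and 11.44, higher by 0.25, 0.20 and 0.10 (blocked limma p = 0.0298, adjusted p = 0.457). Col10a1, a short-chain cartilage gene named after its values were seen, was at 5.24, 5.11 and 5.10 against 5.73, 5.57 and 5.15, lower in all 3 pairs by 0.33 on average (blocked limma p = 0.00927, adjusted p = 0.400). In all, 4 genes were higher and 2 lower in each of the 3 pairs, which is 6 of 25. The share of all probe sets with 1 direction in all 3 pairs was not computed, so this count is a description only.

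Col11a1 differed more between culture numbers than between CTGF and control. It was at 8.16, 8.91 and 9.75 with CTGF and at 8.14, 8.80 and 9.73 in the controls of the same number. The controls spanned 1.59, while the differences within pairs were 0.02, 0.11 and 0.02. Col1a1 was at 10.92, 12 and 11.63 against 10.71, 11.72 and 11.69, so the third pair ran the other way from the rest.

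**Figure D5:**
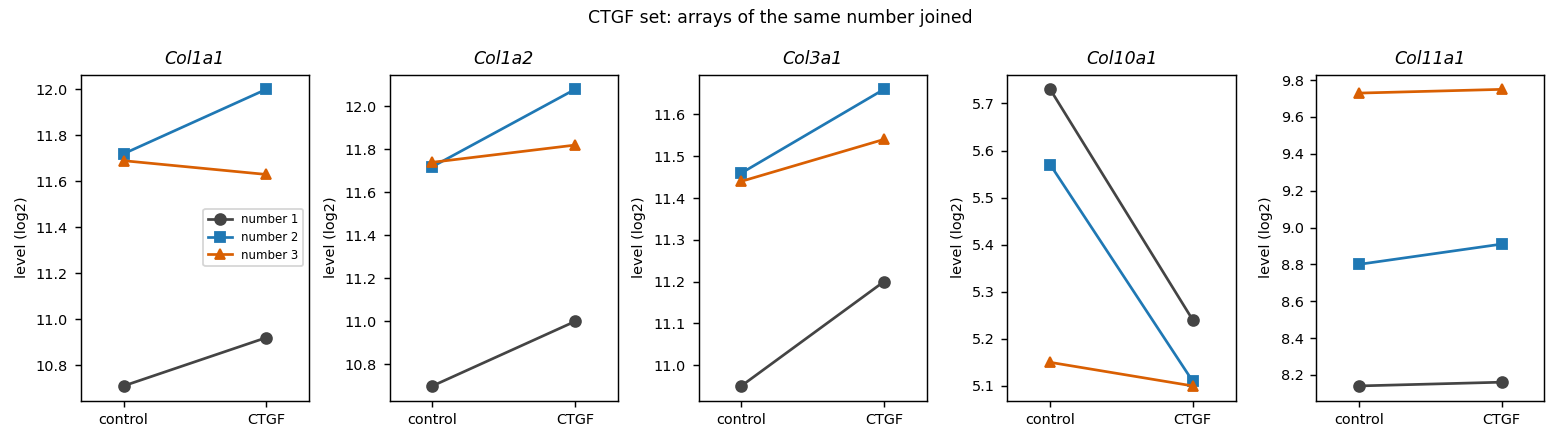
Levels (log2) of 5 collagen genes in the CTGF set, with lines joining the control and the CTGF culture of the same number. Col1a2 and Col3a1 are higher and Col10a1 is lower with CTGF in all 3 pairs, while the Col11a1 lines are nearly flat and lie far apart (8.14 to 9.73 in the controls).

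Genes that act on collagen were taken from 5 lists, of procollagen modification and folding, cleavage and cross-linking, fibril-binding proteins, receptors, and breakdown with its inhibitors, and 62 of 70 were measured. With PDGFab, 19 of the 62 met the study's criteria, all higher (against 3.64% of all probe sets), and with FGF2 15 were higher and 2 lower (against 4.43% and 2.36%). At most 3 met them in either direction with each of the other 7 factors. By limma 4 passed the adjusted threshold. With FGF2 these were Itga1, the alpha chain of a collagen-binding integrin (9.42, 8.39 and 8.37, against 7.88 ± 0.17 in controls, SD, n = 14), higher by 0.85 (limma adjusted p = 0.00343), and Plod1, a lysyl hydroxylase of procollagen, higher by 0.70 (9.03, 8.67 and 9.29, limma adjusted p = 0.0219), a call lost without culture 1 or 3. All 3 FGF2 cultures lay above every control for Itga1, and without culture 1 its difference was 0.50 and no longer passed. With PDGFab it was Cthrc1, a secreted protein of matrix-forming cells (8.82, 7.62 and 8.08, against 7.03 ± 0.39, SD, n = 14), higher by 1.15 (limma adjusted p = 0.0169), by 0.82 without culture 1 and 1.2 without culture 3, neither past the threshold. With GDNF it was Ppib, a prolyl isomerase that folds procollagen, lower by 0.36 (limma adjusted p = 0.0211), a call lost whichever GDNF culture was left out.

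The 19 genes with PDGFab spanned every list, with 6 of 18 for modification and folding, 4 of 11 for cleavage and cross-linking, 4 of 13 fibril-binding proteins, 3 of 9 receptors and 2 of 11 for breakdown. None besides Cthrc1 passed the adjusted threshold. Singled out after their values were seen, Fn1, fibronectin, was higher by 0.87 and Lox, the lysyl oxidase that starts cross-linking, by 0.84. Fn1 was at 11.41, 9.31 and 9.93 with PDGFab, against a control mean of 9.35. Lox was at 9.95, 8.28 and 8.87, against 8.19. For either gene only culture 1 lay above every control. Loxl1, Loxl2 and Loxl3 of the Lox family met the criteria too, at 0.51, 0.47 and 0.33. So did Serpinh1, the collagen chaperone, at 0.32 with all 3 cultures above every control, and the collagen receptor Ddr2 at 0.72. Chosen in the same way, Mmp13, a collagenase, differed by 1.16 with FGF2 and -0.96 with GDNF, and neither passed the adjusted threshold.

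Named by size of difference in the other comparisons, with none past the adjusted threshold, were Lox with AMH (0.64), Itga2, Ctsk and P3h1 with BMP4 (0.51, -0.39 and -0.33), Itga2 with CTGF (0.27), and Mrc2 and Ctsk with FGF7 (0.41 and -0.29). With KITLG they were Fap, Plod2 and Dcn (-0.65, -0.64 and -0.31) and with LIF Timp1, Bgn and Itga1 (0.90, 0.51 and 0.41).

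Stromal mesenchyme, the main source of fibril-forming collagen, was followed by 7 markers. With PDGFab, 4 of 7 met the criteria, all higher (against 3.64% of all probe sets), namely Pdgfra (0.44), Pdgfrb (0.50), Nr2f2 (0.35) and Thy1 (0.69). Lum (0.28), Tcf21 (-0.04) and Dcn (-0.05) did not. The log2 of the summed level of all 7 was 12.73 to 13.08 against 12.18 to 12.96 in the controls. With FGF2, Pdgfrb passed the adjusted threshold (0.59, limma adjusted p = 0.0427), and Pdgfra (0.33) and Thy1 (0.61) met the criteria. Lum, which is also in the list of fibril-binding proteins, met them in the lower direction (-1.10, limma adjusted p = 0.0661). Nr2f2 (0.22), Tcf21 (0.10) and Dcn (-0.30) did not meet them with FGF2. In the higher direction 2 of 7 met them with AMH, 2 with BMP4, 2 with FGF7 and 1 with LIF, against 1.42%, 2.11%, 2.04% and 2.85% of all probe sets, and 0 with GDNF and CTGF. With KITLG, 1 of 7, Dcn, met them in the lower direction (against 2.28%).

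Markers of other cell types met the criteria singly, and at most 1 of a list did so in any comparison. With PDGFab these were Cd163 of 5 macrophage markers (1.01, limma adjusted p = 0.0538, with a median of 0.03 over the 5), Wnt4 of 5 pregranulosa markers (0.35) and Tek of 5 endothelial markers (-0.31). Wnt4 rose with LIF (0.79, limma adjusted p = 0.0156), the one call among them. Dppa3, of 3 oocyte markers, was lower at the criteria with KITLG (-0.74), FGF2 (-0.52), BMP4 (-0.44) and CTGF (-0.41). With FGF7, 1 of the 3 was lower too. Of 5 surface epithelium markers, 1 was lower with each of AMH, BMP4 and FGF7. Among pregranulosa markers, Amhr2 was higher with KITLG (0.52) and Lgr5 lower with FGF2 (-0.56). In the same way 1 endothelial marker was lower with GDNF and with KITLG, and 1 macrophage marker was higher with GDNF and with CTGF. Of 5 perivascular and smooth muscle markers 1 met the criteria with FGF2 and 0 with the other factors, and of 3 cartilage markers 0 did in any comparison. In the comparisons and directions where a marker of these cell types met the criteria, 0.318% to 4.43% of all probe sets did. The part of these markers in the collagen values was not tested.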

How the data were processed

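RNA from 44 pooled ovary samples was hybridized to 1 array each. The authors preprocessed 38 arrays together and the 6 arrays of the CTGF set apart, with the GC-adjusted RMA method of Partek Genomic Suite 6.3, and the deposited values are log2 levels of 27342 probe sets, which were used without further scaling. Gene names came from the platform annotation. It gave 15097 probe sets 1 symbol, 323 several and 11922 none. Groups followed the sample titles. Fits used limma 3.58.1 in R 4.3.3 on all probe sets of a set, with all groups sharing the spread and Benjamini-Hochberg adjustment over all probe sets. Named genes were also tested by two-sided exact permutation of arrays, and correlations by 100000 permutations. The methods' t-test, a replicate block, array weights, a trended robust fit, quantile normalization, median centring, a filter on dim probe sets, mean probe sets and left-out arrays were alternatives. Leaving out control 1 and the direct contrasts were chosen after seeing the data. The members and lists were chosen with earlier results of these data known.

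Named were collagen genes past an adjusted p of 0.05, in each comparison up to 3 of the largest differences in either direction at the study's criteria, partner chains, the 5 largest and 5 smallest SDs over the controls, Col11a1, and, of the other lists, genes past the threshold and otherwise up to 3 at the criteria. Numbered samples of a group were taken as replicates, and p-values measure only the spread between these samples. The number of arrays, 3 per treatment, limits the precision. The fits were tested on simulated data. Protein features were not analysed here. In the CTGF set, treated and control arrays of the same number deviated together from their group means (3 of 3 pairs, r from 0.62 to 0.84), so the numbers were taken to pair them, a pairing that rests on the data. For GDNF the labels give 3 samples, all used here, while the text of the study gives fewer.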

Additional observations from a re-analysis of the deposited data

How the results depend on the processing

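The number of collagen genes past the adjusted threshold, 0 in every comparison, stayed within 0 to 0 when single treated cultures or CTGF controls were left out, and also without control 1. It became 1 with PDGFab, 1 with LIF and 4 with GDNF under array weights, 1 with LIF under quantile normalization, and 2 with GDNF with controls 12, 13 and 14 left out. With the replicate number as a block, the genes at the study's criteria numbered 0 with AMH, 1 with BMP4, 0 with FGF2, 1 with GDNF, 0 with KITLG and 1 with PDGFab, and the GDNF median was 0.10. The numbers of treated arrays and controls do not pair throughout the main set (7 of 24 correlations over 0.1, and 3 of 24 highest with their own number). Those 3 were culture 1 of FGF2, KITLG and LIF, with r = 0.74, 0.61 and 0.69 with control 1. The part of this likeness in the collagen values was not tested. The single FGF2 gene at the criteria became 0 under the t-test on log2 values, the t-test on linear values, treated arrays and controls alone, array weights and quantile normalization. FGF7 had 2 under array weights and 2 with controls 12, 13 and 14 left out, GDNF had 1 under quantile normalization and 1 with those controls left out, and KITLG had 1 without them. When single arrays were left out, the counts at the criteria ran from 0 to 1 with AMH, 1 to 3 with BMP4, 0 to 1 with CTGF, 0 to 4 with FGF2, 0 to 1 with FGF7, 0 to 1 with GDNF, 0 to 4 with KITLG, 1 to 2 with LIF and 1 to 7 with PDGFab. The median change of the 25 genes then ran from -0.076 to 0.057 with AMH, -0.079 to -0.044 with BMP4, -0.013 to 0.058 with CTGF, -0.073 to 0.046 with FGF2, -0.014 to 0.015 with FGF7, 0.051 to 0.074 with GDNF, -0.080 to -0.0021 with KITLG, -0.12 to -0.0065 with LIF and -0.034 to 0.096 with PDGFab. Under array weights it was -0.039 with BMP4 and 0.090 with GDNF, and the GDNF median was 0.023 under quantile normalization, 0.043 with array medians centred and 0.069 with controls 12, 13 and 14 left out. The 5 calls among direct contrasts became 0 with the t-test on log2 values, 0 on linear values, 17 with the replicate block, 31 with array weights, 16 with controls 12, 13 and 14 left out and 6 without control 1. For partner chains, Col11a1 and Col11a2 had r = -0.80 with controls 12, 13 and 14 left out, Col1a1 and Col1a2 had 0.57 without the 2 farthest controls, and Col2a1 and Col11a1 turned to 0.077 under quantile normalization and 0.10 without control 1. Of the changes of named genes, Col11a1 with AMH turned to -0.055 without AMH culture 3 (and was 0.77 without culture 2). Col1a2 with CTGF turned to -0.10 without CTGF control 1 (and was 0.56 without CTGF culture 1). These 2 CTGF values come from the fit without the block, so leaving out 1 array breaks a pair. Within the pairs Col1a2 was higher by 0.30, 0.36 and 0.08. The causes were not tested, except that fewer arrays give a fit less precision.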
